A study of Homo sapiens with 2 samples.

Results

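The ubiquitin-specific proteases are the largest family of deubiquitinases, and 51 of them were listed in RNA-seq data of NCI-H2030, an established line of human lung adenocarcinoma cells. They were chosen by name, as the annotated genes outside chromosome Y whose symbol is USP followed by a number and at most an L or X, from 55283 annotated symbols. The first library came from cells treated with miR-494-3p AS and the second from cells treated with SC, and they are called AS and SC here because the labels spell out neither abbreviation. The study's title ties this microRNA to SET, an inhibitor of the phosphatase PP2A. Total RNA was the source, and nothing else in the labels differs between the groups. Each group was 1 library of the same cell line, so no difference could be set against a spread between replicates, no test was made, and every ratio compares these 2 libraries only.

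Ubiquitin is a small protein that is joined to other proteins in chains, and a chain of the common type sends its protein to the proteasome. The proteases of this family cut ubiquitin off again, with a cysteine in a catalytic domain that the members share, and so set how long their substrates last or where they go. In tumour cells the family is best known for its members that act on p53 and its ligase MDM2, on histones, on DNA repair proteins and on growth factor receptors.

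MicroRNAs pair with messenger RNAs through their seed, bases 2 to 8. The mature sequence of miR-494-3p (RefSeq, GRCh38.p14) is shown with the seed in capitals, because the sites searched in the family follow from it. The sites lie on the sense strand of the 3' UTR and are ATGTTTCA (8-base), ATGTTTC and TGTTTCA (7-base), a 7-base match inside an 8-base one being counted once. The 8-base sites of members with a mean of at least 1 TPM are shown with up to 11 bases on each side and the match in capitals, from the longest 3' UTR of each gene in GENCODE release 29, and bases are counted from the first base after the stop codon. USP8, USP12, USP14, USP15, USP36 and USP47 held them, on chromosomes 15, 13, 18, 12, 17 and 11.
miR-494-3p: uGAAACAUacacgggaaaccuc
USP12 site at bases 1065 to 1072: taagtattctaATGTTTCAagttgagatca
USP14 site at bases 99 to 106: taggtgggtttATGTTTCAcctcatttgga
USP15 site at bases 10838 to 10845: aggaagactgaATGTTTCAgttttagtgca
USP36 site at bases 317 to 324: tgtgccttctcATGTTTCAtagacagtggt
USP47 site at bases 714 to 721: atgtagagaatATGTTTCAttcatttattc
USP8 site at bases 8297 to 8304: tggtgcttaaaATGTTTCAgattttggagc
USP8 site at bases 15300 to 15307: tttctgtatatATGTTTCActtcaataaag

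Levels are given as the deposited TPM, a level per transcript length relative to the library's total, and as the deposited coverage, the mean number of reads over each base of a gene. Ratios are log2((AS + 1)/(SC + 1)) on either column, which understates ratios of low levels, and a gene counts as measured where the mean of AS and SC reached 1 TPM. A log2 ratio of at least 1 in either direction is called 2-fold. Depth was similar, since coverage per FPKM was 3.54 in AS and 3.62 in SC. MIR494, the gene of the microRNA, was listed at 0 in both, and its mature form is not measured by such libraries. SET stood at 79.1 TPM in AS and 30.4 TPM in SC. The epithelial keratins KRT7, KRT8 and KRT18 were between 55.2 and 479 TPM in AS and between 67.9 and 558 TPM in SC, whereas the lung lineage markers NKX2-1, SFTPB and SFTPC were at most 0.0538 TPM, NAPSA was 1.04 TPM in AS and 1.62 TPM in SC, CDH1 was at most 0.0137 TPM and KRT19 was listed at 0. EPCAM stood at 1.84 TPM in AS and 0.604 TPM in SC. Of these 4 lung lineage markers, NAPSA alone passed 1 TPM. PTPRC and CD3E of immune cells were listed at 0, and PDGFRB, VWF and CDH5 of stroma and vessels were at most 0.149 TPM. CD68, which tumour cells can also express, stood at 203 TPM in AS and 285 TPM in SC, and the fibroblast gene COL1A1 at 15.8 TPM in AS and 26.3 TPM in SC, with COL1A2 listed at 0 in both. In such bulk samples fewer cells that express a gene and less RNA per cell cannot be told apart.

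Most members were higher in AS than in SC on both columns. Of 39 measured members, 16 were at least 2-fold higher in TPM, 1 was at least 2-fold lower and 22 lay between, while 16.5% of all 13665 measured genes were 2-fold higher and 2.17% 2-fold lower. In coverage 11 of the 39 were 2-fold higher and none was 2-fold lower, against 9.13% and 1.88% of all measured genes. The members' median log2 ratio was 0.85 in TPM and 0.72 in coverage, and that of all measured genes was 0.28 in TPM and 0.16 in coverage. A ratio above 0 was found for 32 members in TPM and 34 in coverage, against 66.2% and 60.4% of all measured genes. In FPKM, from which TPM differs by a factor of 2.13 in AS and 1.98 in SC, 11 members were 2-fold higher and 1 lower, against 9.37% and 1.64% of all measured genes. FPKM values are smaller than TPM values, so the added 1 also weighs more in these ratios.

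**Figure D1:**
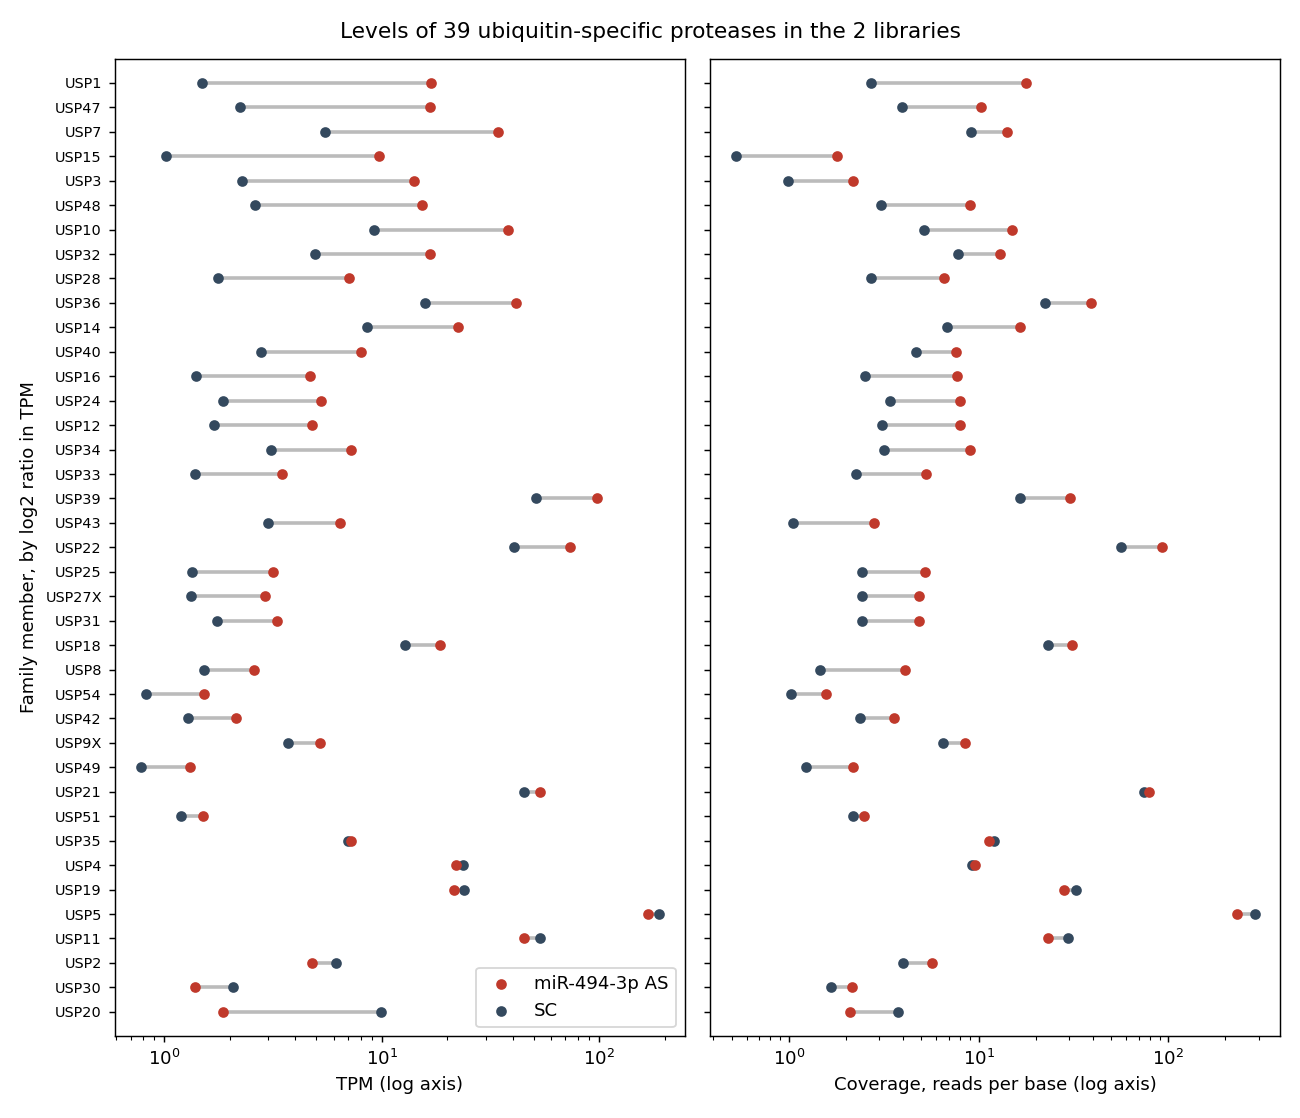
TPM (left) and coverage in reads per base (right) of the 39 measured family members, each on a log axis, with 1 point for the miR-494-3p AS library and 1 for the SC library. USP1, at the top, has the largest ratio in both panels, whereas USP5 has the highest level in both libraries and USP20, at the bottom, is the only member 2-fold lower in TPM.

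The most abundant member was USP5, which takes apart free ubiquitin chains, with 168 TPM in AS and 188 TPM in SC. It was followed by USP39, USP22, USP21 and USP11, and these 5 genes led the family in both libraries. Together they made up 53.6% of the summed TPM of the family in AS and 68.7% in SC. The family as a whole summed to 816 TPM in AS and 550 TPM in SC. The median measured member stood at 7.24 TPM in AS and 2.79 TPM in SC. Of the 51 members, 41 were at or above 1 TPM in AS and 37 in SC. Among all 55283 annotated symbols, 14172 were at or above 1 TPM in AS and 12812 in SC, so more genes passed this level in AS across the library.

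Which members count as 2-fold higher depended on the column. USP1, USP47, USP48, USP10, USP28, USP14, USP16, USP24, USP12 and USP34 were 2-fold higher in both TPM and coverage, 10 of 39 members, against 8.19% of all measured genes. USP7, USP15, USP3, USP32, USP36 and USP40 were 2-fold higher in TPM and within 2-fold in coverage, and USP8 was 2-fold higher in coverage only. For USP15 and USP3 the added 1 sets this, since their plain coverage folds were 3.41 and 2.20, and with 0.1 added in place of 1 their log2 ratios in coverage were 1.60 and 1.06. With 0.1 added, 20 members were 2-fold higher in TPM (23.0% of all measured genes) and 16 in coverage (15.2%). For 10 members the coverage was at least 0.9 of the constant that relates it to FPKM in both libraries, and their log2 ratios in TPM and coverage differed by at most 0.13. That closeness follows mainly from how they were picked, since TPM is FPKM times a factor in each library, and it is not a second measurement. The 10 members were USP9X, USP12, USP16, USP18, USP24, USP25, USP27X, USP35, USP42 and USP51. The remaining measured members were below 0.9 of the constant in at least 1 library. No member was 2-fold lower in both columns, against 1.01% of all measured genes. In TPM the member just inside 2-fold was USP34 (1.01) and those just outside were USP33 and USP39 (both 0.91).

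**Figure D2:**
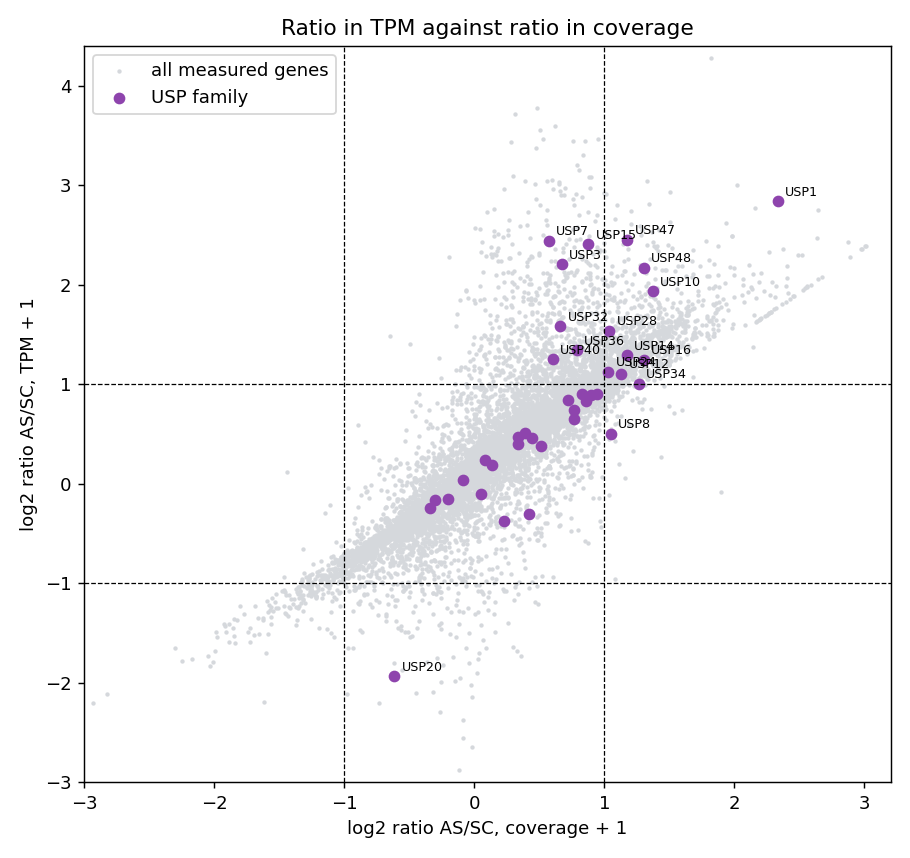
Log2 ratio of AS over SC in TPM (vertical) against that in coverage (horizontal), both with 1 added, for the 39 measured members (purple, named where past 2-fold on either column) and all measured genes within the axes (grey); dashed lines mark 2-fold. USP7, USP15 and USP3 have log2 ratios over 2 in TPM and under 1 in coverage, and USP1 is past 2 on both.

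The tables also list loci that were assembled from the reads, with no gene name, and the span of each was set against that of the gene. Spans run from start to end with introns included. A wide span need not be 1 transcript or hold reads all along it. A locus over at least 90% of the gene is called full length here in this sense only. In AS 25 of the 39 measured members had an assembled locus on their strand over at least 90% of the annotated gene, and in SC 15 had one. Of all measured genes 70.0% had such a locus in AS and 63.2% in SC. A locus is assembled from the same reads that give the level in its library, so these groups are not independent of the ratios. The 14 members with a full-length locus in both libraries had a median log2 ratio of 0.38 in TPM and 0.27 in coverage, and 4 were 2-fold higher in TPM. The 8190 measured genes with one in both had medians of 0.19 and 0.07, and 11.2% were 2-fold higher in TPM. The 11 members with one in AS and none in SC had a median of 2.17 in TPM and 0.88 in coverage, and 7 were 2-fold higher in TPM. They were USP1, USP3, USP7, USP15, USP16, USP25, USP31, USP39, USP43, USP47 and USP48. Over all measured genes, 1381 had a full-length locus in AS and not in SC, with a median of 1.00 in TPM and 0.65 in coverage, and 50.0% of them were 2-fold higher in TPM. USP20 was the only member with a full-length locus in SC and none in AS, and the 13 members with one in neither library had a median of 0.50 in TPM. The assembled loci were also used in place of the annotated rows. With the locus of best reciprocal overlap, 13 members were 2-fold higher and 1 lower, against 16.1% and 3% of 13244 genes. With the locus of highest TPM, an alternative chosen after the data were seen, 12 were higher and 0 lower, against 13.5% and 2.13%. The log2 ratios of USP1 (1.73), USP10 (2.05), USP47 (0.55) and USP15 (0.62) were the same in both. The choice of locus decided USP7, at 3.62 with the best overlap and 0.58 with the highest TPM, and USP20, at -2.60 with the best overlap and -0.46 with the highest TPM. USP24, USP32, USP36 and USP40, like USP47 and USP15, were within 2-fold in either choice. USP43 and USP49 were 2-fold higher in either choice, USP8 with the best overlap only and USP54 with the highest TPM only. The part of the assembly in the TPM ratios was not tested.

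**Figure D3:**
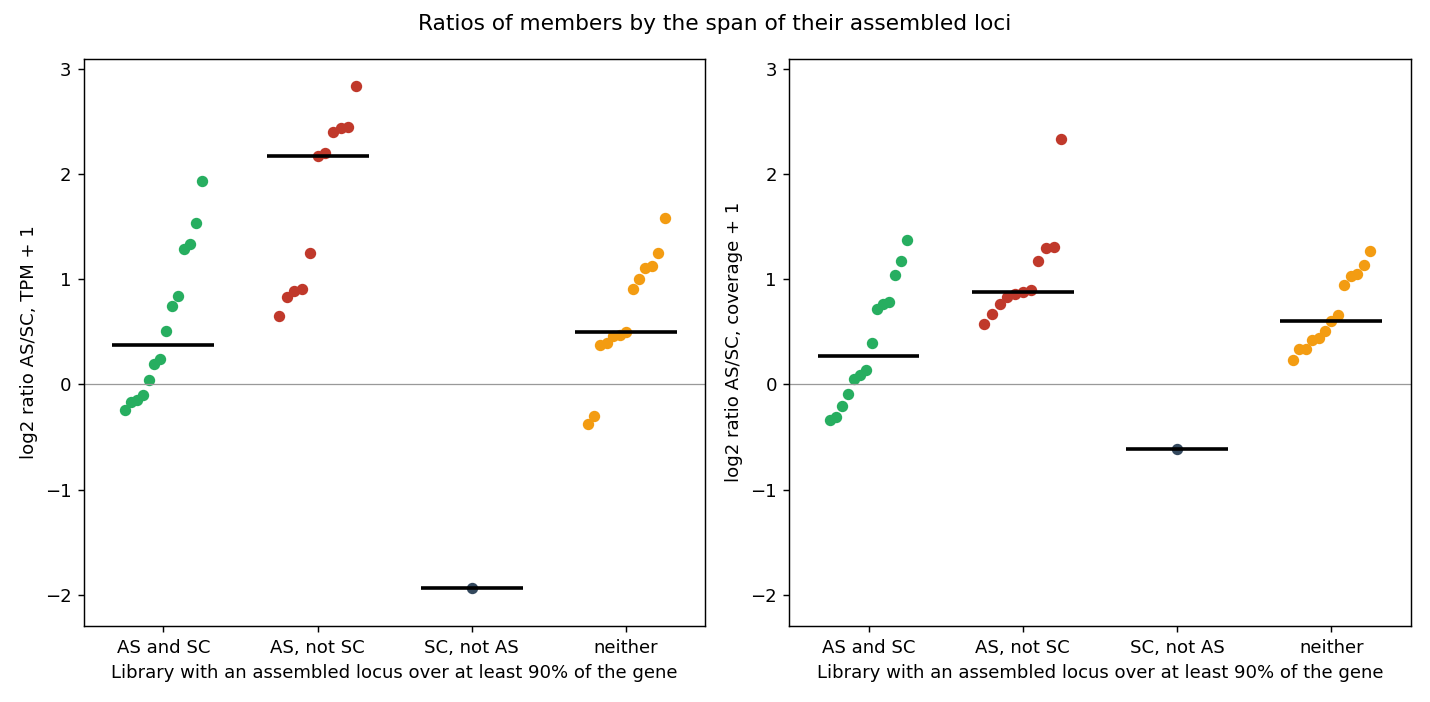
Log2 ratios of the 39 measured members in TPM + 1 (left) and coverage + 1 (right). They are grouped by the libraries in which 1 assembled locus spans, from start to end, at least 90% of the gene. Each point is a gene and each bar a median. The group with such a locus in AS and not in SC has a median of 2.17 in TPM and 0.88 in coverage, and the group with one in both has 0.38 and 0.27. The grouping and the ratios come from the same reads and are not independent.

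Among the members activated by the WD40 protein UAF1, USP1 had the largest ratio of the family. USP1, which takes ubiquitin off the repair proteins FANCD2 and PCNA (ENSG00000162607, chromosome 1, 62901968 to 62917475, plus strand, GRCh37), stood at 16.8 TPM in AS and 1.49 TPM in SC, a log2 ratio of 2.84. Its coverage was 17.8 reads per base in AS and 2.73 in SC, a log2 ratio of 2.33, so AS was higher on both columns. One assembled locus spanned 97.7% of the gene in AS, at 18.2 TPM, and 42.0% of it in SC, at 4.77 TPM. USP12, which also needs UAF1 for its activity, stood at 4.78 TPM in AS and 1.69 TPM in SC, with a coverage of 7.97 reads per base in AS and 3.09 in SC. Its log2 ratios were 1.11 in TPM and 1.13 in coverage, and its coverage lay at the constant that relates it to FPKM in both libraries, so the columns are not separate measurements. USP46, the near relative of USP12, was below the mean of 1 TPM, at 0.925 TPM in AS and 0.296 TPM in SC. WDR48, which encodes UAF1, stood at 7.84 TPM in AS and 1.32 TPM in SC, with a log2 ratio of 1.93 in TPM and 0.65 in coverage.

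Of 9 members known for DNA damage and p53, 8 were measured, 6 of them 2-fold higher in TPM and 5 in coverage, against 16.5% and 9.13% of all measured genes. Their medians were 1.74 and 1.03, and these roles were assigned with earlier results of the data known. Set against the median of coding genes of like GC content, in classes described below, USP10 alone of them stayed 2-fold higher in coverage (1.08). In TPM USP7, USP47, USP48 and USP10 stayed so, at 1.79, 1.55, 1.52 and 1.50. Of measured coding genes 4.74% in TPM and 1.47% in coverage were 2-fold above their class. USP7, the protease of MDM2 and p53 also called HAUSP (ENSG00000187555, chromosome 16, 8985951 to 9058371, minus strand, GRCh37), stood at 34.3 TPM in AS and 5.50 TPM in SC, a log2 ratio of 2.44. Its coverage was 14.1 reads per base in AS and 9.12 in SC, a log2 ratio of 0.57. In AS 1 locus spanned 98.6% of USP7 at 34.3 TPM. In SC the gene held a locus of 22.6 TPM that spanned 40.2% of it and one of 1.87 TPM that spanned 55.1%. The level of USP7 in SC thus lay at 5.50 TPM in the annotated row and at 22.6 TPM in the larger of its loci by level. USP10, which acts on p53 in the cytoplasm (ENSG00000103194, chromosome 16, 84733584 to 84813528, plus strand, GRCh37), stood at 37.9 TPM in AS and 9.17 TPM in SC, with a coverage of 14.9 reads per base in AS and 5.16 in SC. Its loci spanned at least 99.6% of the gene in both libraries, at 37.8 TPM in AS and 8.37 TPM in SC, and its log2 ratios were 1.94 in TPM and 1.37 in coverage.

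USP47, a protease of the base excision repair enzyme DNA polymerase beta, stood at 16.7 TPM in AS and 2.23 TPM in SC, with log2 ratios of 2.45 in TPM and 1.18 in coverage. Its locus spanned all of the gene in AS, and the wider of 2 loci in SC spanned 15.8% of it at 11 TPM, against 16.6 TPM for the AS locus. USP48, which acts on the histone H2A site modified by BRCA1, stood at 15.3 TPM in AS and 2.62 TPM in SC (2.17 in TPM, 1.30 in coverage). USP28, which stabilises MYC, stood at 7.05 TPM in AS and 1.77 TPM in SC, with log2 ratios of 1.54 and 1.04. Its loci were full length in both libraries, at 8.11 TPM in AS and 3.07 TPM in SC. USP24, which acts on the damage sensor DDB2, stood at 5.24 TPM in AS and 1.86 TPM in SC (1.12 in TPM, 1.03 in coverage). USP11, a partner of BRCA2, was among the abundant members and had a lower level in AS, at 44.9 TPM in AS and 53.2 TPM in SC, with log2 ratios of -0.24 in TPM and -0.34 in coverage. USP2, which acts on MDM2, had 4.80 TPM in AS and 6.13 TPM in SC, and its columns differed in direction, at -0.30 in TPM and 0.42 in coverage.

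Of 10 histone and chromatin members 9 were measured, and all 9 had ratios above 0 on both columns, 3 of them 2-fold higher in TPM and 1 in coverage. Over all measured genes 66.2% were above 0 in TPM and 60.4% in coverage, and 16.5% and 9.13% were 2-fold higher, so 1 of 9 in coverage is near the background. USP3, a protease of histones H2A and H2B, stood at 14.1 TPM in AS and 2.27 TPM in SC, but its coverage was 2.17 reads per base in AS and 0.988 in SC, with log2 ratios of 2.21 and 0.67. On the opposite strand within the same span, the antisense gene USP3-AS1, chosen after its values were seen, stood at 1.48 TPM in AS and 17.2 TPM in SC, with log2 ratios of -2.88 in TPM and -0.11 in coverage. The libraries were made with a directional kit, but the counting is not stated to use strand, so reads of such overlapping genes may not be told apart. Among the other genes opposite a member, each chosen after its values were seen, TOMM6 stood at 303 TPM in AS and 304 TPM in SC across from USP49, and C9orf78 at 32.0 TPM in AS and 26.7 TPM in SC across from USP20. USP16, which acts on H2A before mitosis, stood at 4.70 TPM in AS and 1.40 TPM in SC (1.25 in TPM, 1.30 in coverage), and it was the chromatin member 2-fold higher on both columns.

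USP36, a nucleolar protease of MYC, stood at 41.6 TPM in AS and 15.8 TPM in SC, with log2 ratios of 1.34 in TPM and 0.79 in coverage. USP22, the protease of the SAGA coactivator that acts on H2B, stood at 73.7 TPM in AS and 40.6 TPM in SC, with 0.85 in TPM and 0.72 in coverage, and its locus spanned 98.4% of the gene in both libraries. USP27X and USP51 can take the place of USP22 with its partners ATXN7L3 and ENY2. USP27X, at 2.90 TPM in AS and 1.33 TPM in SC, had a log2 ratio of 0.75 in TPM, and USP51, at 1.50 TPM in AS and 1.19 TPM in SC, one of 0.19. USP21 was within 2-fold at 53.3 TPM in AS and 45.0 TPM in SC (0.24 in TPM, 0.09 in coverage), as were USP42 at 2.14 TPM in AS and 1.29 TPM in SC (0.46 and 0.44) and USP49 at 1.31 TPM in AS and 0.777 TPM in SC (0.38 and 0.51).

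Of the signalling members, USP15, which acts on receptors and SMADs of the TGF-beta pathway, had the largest ratio, at 9.68 TPM in AS and 1.02 TPM in SC (2.40). Its coverage was low, at 1.80 reads per base in AS and 0.529 in SC, and gave 0.88. Relative to its FPKM, this coverage was 0.112 of the library's constant in AS and 0.284 in SC. USP15 was spanned over 92.8% by 1 locus of 9.66 TPM in AS, and over 13.0% at most by a locus of 5.93 TPM in SC. USP34, which acts on axin in the Wnt pathway, stood at 7.24 TPM in AS and 3.11 TPM in SC, with 1.01 in TPM and 1.27 in coverage. USP4, the close relative of USP15, stood at 22.0 TPM in AS and 23.7 TPM in SC (-0.10 in TPM, 0.05 in coverage), and the gene C3orf62, chosen after its values were seen, overlaps it on the same strand, at 3.93 TPM in AS and 3.31 TPM in SC. USP9X, a protease of the survival protein MCL1, stood at 5.22 TPM in AS and 3.72 TPM in SC (0.40 and 0.33).

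Of the 7 measured members of membrane traffic and organelles, 1 was 2-fold higher and 1 lower in TPM, with a median log2 ratio of 0.04, and in coverage 1 was higher and 0 lower, with a median of 0.23. The shares higher lie near the 16.5% in TPM and 9.13% in coverage of all measured genes that were 2-fold higher. Over all measured genes 2.17% were 2-fold lower in TPM and 1.88% in coverage, and the share lower here rests on 1 gene. USP20, which acts with VHL and on receptors that recycle (ENSG00000136878, chromosome 9, 132596977 to 132644107, plus strand, GRCh37), was the only member 2-fold lower, at 1.87 TPM in AS and 9.96 TPM in SC, a log2 ratio of -1.93. Its coverage was 2.10 reads per base in AS and 3.76 in SC, a log2 ratio of -0.62. In SC 1 locus spanned 98.4% of it at 9.95 TPM, and in AS it held 3 loci, the highest at 6.95 TPM. Its near relative USP33, which also binds VHL, stood at 3.46 TPM in AS and 1.38 TPM in SC, with 0.91 in TPM and 0.95 in coverage, so the pair had opposite signs on both columns.

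USP32, found on endosomes and the Golgi, stood at 16.7 TPM in AS and 4.91 TPM in SC (1.58 in TPM, 0.66 in coverage), and its USP6 relative had at most 0.0184 TPM. USP8, which acts on receptors such as EGFR at the endosome, stood at 2.57 TPM in AS and 1.52 TPM in SC with a coverage of 4.07 reads per base in AS and 1.45 in SC, and had a larger ratio in coverage (1.05) than in TPM (0.50). USP30, a mitochondrial protease that opposes parkin, was at 1.38 TPM in AS and 2.08 TPM in SC, with a log2 ratio of -0.37 in TPM and 0.23 in coverage, so that its columns differed in sign, as for USP2, USP4 and USP35. USP19, anchored in the endoplasmic reticulum, was abundant and nearly level at 21.4 TPM in AS and 23.9 TPM in SC (-0.15 and -0.20), as was USP35 at 7.19 TPM in AS and 6.98 TPM in SC (0.04 and -0.09).

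The proteasome member USP14, which trims chains on proteins at the proteasome, stood at 22.5 TPM in AS and 8.59 TPM in SC, with 1.29 in TPM and 1.17 in coverage. Its loci spanned the gene in both libraries, at 27.7 TPM in AS and 8.59 TPM in SC. The gene THOC1, which overlaps USP14 on the opposite strand and was chosen after its values were seen, stood at 16.6 TPM in AS and 3.26 TPM in SC. USP5, by contrast, had log2 ratios of -0.16 in TPM and -0.31 in coverage. Its relative USP13 was below the filter at 0.377 TPM in AS and 0.188 TPM in SC.

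USP39, a spliceosome protein that lacks protease activity, was exceeded by USP5 alone in AS, and by USP5 and USP11 in SC, at 97.3 TPM in AS and 51.5 TPM in SC (0.91 in TPM, 0.83 in coverage). USP54, long classed as inactive, stood at 1.53 TPM in AS and 0.823 TPM in SC (0.47). USP18, which removes the interferon-induced modifier ISG15, stood at 18.6 TPM in AS and 12.7 TPM in SC (0.51), and its close copy USP41 at 0.812 TPM in AS and 0.0863 TPM in SC. Reads may be split between USP18 and USP41, so both are uncertain. USP25, which acts on TRAF signalling proteins, stood at 3.16 TPM in AS and 1.34 TPM in SC (0.83 in TPM, 0.86 in coverage). Of the less described members, USP40 stood at 8.04 TPM in AS and 2.79 TPM in SC (1.25 in TPM, 0.60 in coverage), USP43 at 6.39 TPM in AS and 2.99 TPM in SC (0.89 and 0.89) and USP31 at 3.29 TPM in AS and 1.74 TPM in SC (0.65 and 0.77).

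The other 12 members did not reach a mean of 1 TPM. USP26, USP29 and USP50 were listed at 0 in both libraries and USP44 in AS. The remaining ones, USP6, USP13, USP37, USP38, USP41, USP45, USP46 and USP53, were at most 1.12 TPM in either library. USP37, a protease of cyclin A, stood at 1.05 TPM in AS and 0.420 TPM in SC, and USP38 at 1.12 TPM in AS and 0.417 TPM in SC. USP45, which acts on the repair nuclease ERCC1, was at 0.548 TPM in AS and 0.548 TPM in SC, and USP53 at 0.614 TPM in AS and 0.360 TPM in SC.

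Members of low GC content had the larger ratios on both columns. Measured coding genes were put into 10 classes of equal size by the GC content of their longest coding transcript. The 3 classes of lowest GC content held 15 measured members, of 36.5% to 44.2%, whose median ratio was 1.12 in TPM and 1.04 in coverage (log2), and 10 of them were 2-fold higher in TPM. All 3192 measured coding genes of those classes had medians of 0.85 and 0.65, with 39.2% 2-fold higher in TPM. The 5 members of 57.6% to 61.3% GC content, USP21, USP5, USP19, USP20 and USP35, had medians of -0.15 and -0.20, beside -0.12 and -0.24 for the 2127 coding genes of the same classes. The 18 members between them had medians of 0.75 and 0.59, beside 0.35 and 0.22 for 4254 coding genes. The members' median GC content was 45.7%, against 50.7% for measured coding genes, over the 38 members with an entry in GENCODE.

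Set against the median of coding genes in their own class of GC content, 25 of these 38 members lay above it in TPM and 30 in coverage, and the median distance was 0.24 in TPM and 0.28 in coverage. In TPM 8 members were at least 2-fold above their class and 2, USP20 and USP30, were 2-fold below, against 4.74% and 3.06% of coding genes. In coverage 2 members were 2-fold above and none below, against 1.47% and 0.799% of coding genes. The 2 were USP1, at 1.65 above its class, and USP10, at 1.08 above. Of the 6 members 2-fold higher in TPM only, USP7, USP3, USP32 and USP15 lay 0.08, 0.09, 0.17 and 0.18 above their classes' medians in coverage, USP40 lay 0.31 above and USP36 0.88 above. The part of base composition in these ratios was not tested.

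**Figure D4:**
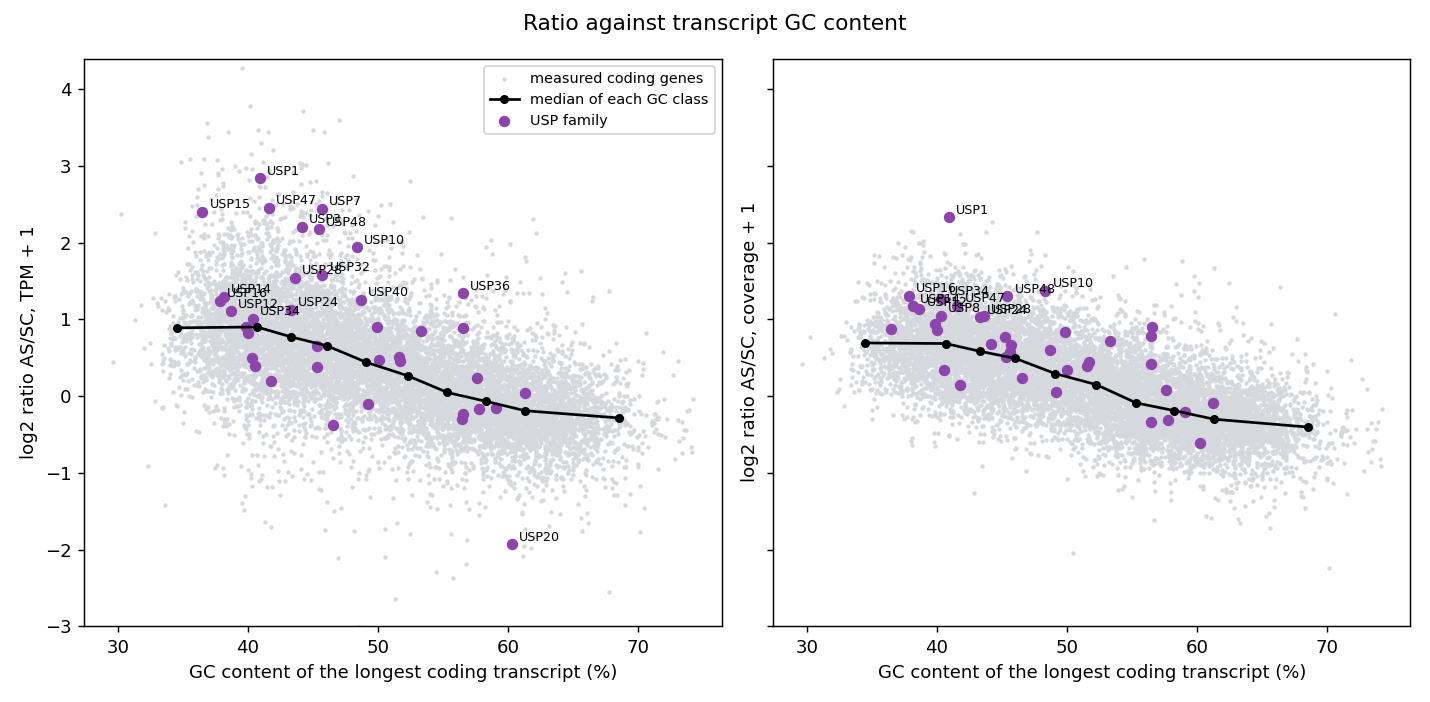
Log2 ratio of AS over SC in TPM + 1 (left) and coverage + 1 (right) against the GC content of the longest coding transcript in percent, for 38 members (purple, named where past 2-fold) and measured coding genes within the axes (grey), with the median of each of the 10 GC classes as a black line. The line falls with GC content over most of its range in both panels, and in coverage USP1 stands 1.65 above it.

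Seed matches of miR-494-3p were found in the 3' UTR of 11 of 38 measured members (28.9%), a share near that of measured coding genes (27.7% of 10564). The 11 were USP8, USP12, USP14, USP15, USP20, USP28, USP31, USP36, USP42, USP47 and USP48. Their median log2 ratio was 1.29 in TPM and 1.04 in coverage, and that of the 27 members without a site was 0.83 in TPM and 0.57 in coverage. Among all measured coding genes the medians were 0.63 and 0.47 with a site and 0.19 and 0.06 without one. USP20, the member 2-fold lower in TPM, holds 1 of the 7-base sites, and USP1, USP7, USP3 and USP10 hold none. Genes with a site also had longer 3' UTRs, with medians of 3141 bases in members with a site and 898 bases in members without one, and a lower GC content, with medians of 43.6% and 48.4%. A match is a description of the letters in the UTR, and whether these sites bind the microRNA was not tested.

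Some near relatives in the family had unlike ratios and others like ones. USP15 and USP4 had 9.68 and 22.0 TPM in AS, and 1.02 and 23.7 TPM in SC, so USP4 exceeded USP15 by 2.27-fold in AS and 23.3-fold in SC. In coverage the log2 ratios of the pair were 0.05 for USP4 and 0.88 for USP15, a smaller gap. GC content was 49.2% for USP4 and 36.5% for USP15. USP33 and USP20 likewise differed in GC content, at 39.8% and 60.3%. USP7 and USP47 had nearly the same ratio in TPM (2.44 and 2.45) and differed in coverage (0.57 and 1.18). USP22 and USP27X, at 0.72 and 0.77 in coverage, and USP31 and USP43, at 0.77 and 0.89, were close. USP25 and USP28 were both higher in AS, at 0.83 and 1.54 in TPM and 0.86 and 1.04 in coverage.

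The other deubiquitinase families, taken from a list of UCH, OTU, Josephin and JAMM proteins, had 30 measured genes, of which 7 were 2-fold higher in TPM, 4 in coverage and none lower, against 16.5% and 9.13% of all measured genes. The list goes by protein family, so not every gene on it encodes an active deubiquitinase. Their median log2 ratio was 0.46 in TPM and 0.61 in coverage, beside 0.85 and 0.72 for the ubiquitin-specific proteases. Of the 30 genes, 23 were above 0 in TPM and 21 in coverage. Their median GC content of 44.9% lay beside 45.7% for the ubiquitin-specific proteases. UCHL5, a proteasome-bound enzyme, stood at 16.7 TPM in AS and 2.68 TPM in SC (2.26 in TPM, 1.35 in coverage), and BRCC3, which cuts chains at DNA breaks, at 13.6 TPM in AS and 3.39 TPM in SC (1.73 and 1.37). COPS5, the catalytic subunit of the COP9 signalosome, stood at 146 TPM in AS and 56.0 TPM in SC (1.36 and 1.27). JOSD2 was lower in AS, at 110 TPM in AS and 155 TPM in SC (-0.50 in TPM, -0.62 in coverage). UCHL1 was also lower, at 307 TPM in AS and 387 TPM in SC (-0.33 and -0.03). CYLD, which shares the catalytic fold but not the symbol, stood at 3.04 TPM in AS and 1.07 TPM in SC (0.96 in TPM, 0.63 in coverage). Whether the families differ from each other was not tested.

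Of 15 measured partner proteins, 7 were 2-fold higher in TPM and 2 in coverage, against 16.5% and 9.13% of all measured genes, with medians of 0.70 and 0.56. The 2 of 15 in coverage is near the background. The partners' median GC content of 42.2% lies in the 3 classes of lowest GC content. In those classes 39.2% of coding genes were 2-fold higher in TPM and 20.3% in coverage. The list holds FAM188A, itself a deubiquitinase of another family, at 4.59 TPM in AS and 1.37 TPM in SC (1.24 in TPM, 0.83 in coverage). It also holds SART3, which carries partner proteases into the nucleus, at 30.5 TPM in AS and 11.4 TPM in SC (1.34 in TPM, 1.09 in coverage). None of the 6 ubiquitin genes and activating enzymes was 2-fold higher or lower, and their median was -0.06 in TPM. UBA1, the main activating enzyme, was at 216 TPM in AS and 281 TPM in SC (-0.38), and the ubiquitin gene UBB at 1446 TPM in AS and 1561 TPM in SC (-0.11). The 2 above 0 in TPM were RPS27A, at 1277 TPM in AS and 1033 TPM in SC (0.31), and UBA6, at 1.44 TPM in AS and 1.085 TPM in SC (0.23). Of 21 measured genes whose proteins are described substrates of the family, 12 were 2-fold higher in TPM and 5 in coverage, with medians of 1.05 and 0.73 and none lower. Over all measured genes 16.5% and 9.13% were 2-fold higher, and in the 3 classes of lowest GC content, where the median GC content of the substrates (43.4%) lies, 39.2% and 20.3% of coding genes were. They were led by HIF1A, at 11.4 TPM in AS and 0.651 TPM in SC (2.91 in TPM, 0.78 in coverage), and MET, at 26.5 TPM in AS and 3.45 TPM in SC (2.63 and 1.50). CLSPN, a checkpoint mediator, stood at 12.2 TPM in AS and 3.14 TPM in SC (1.67 and 1.41).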

How the data were processed

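RNA-seq was done on 1 AS and 1 SC library of NCI-H2030, with a directional library kit per the labels' protocols. The authors deposited, per library, coverage, FPKM and TPM per annotated gene and per assembled locus, per the file headers. Which aligner and quantifier made them is not given here in any source used. The deposited TPM column is recorded as a score, because its annotated rows alone sum to 968917 in AS and 973681 in SC and the assembled rows add a like amount. The coverage signal is as the authors deposited it, not normalized for depth. The submitters' processing notes name GRCh38 and hg38, but coordinates in the tables are those of GRCh37 and are printed so.

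Rows of 1 symbol were summed and chromosome Y was left out. Python 3.11.15, pandas 2.3.3 and numpy 2.4.6 computed log2((AS + 1)/(SC + 1)) for genes of at least 1 TPM on average. GENCODE release 29, matched by gene identifier, gave GC content of the longest coding transcript and 3' UTRs, and none of its coordinates were used. An assembled locus was taken on the gene's strand. Read counts are not given, so no counting interval was computed. The calculation was run on simulated data with large imposed changes, which checks the arithmetic only. The simulation held no trend with GC content and no assembled loci. Alternatives were other pseudocounts, filters, scalings, columns and rows. The members, lists and roles were chosen with earlier results of these data known. All measured members are named; from each other list up to 4 genes of largest absolute ratio could be named.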

Additional observations from a re-analysis of the deposited data

How the results depend on the processing

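No paired analysis was possible because each group has 1 library. Main counts were 16 members 2-fold higher and 1 lower in TPM, and 11 higher and none lower in coverage, with medians of 0.85 and 0.72. The median stayed above 0 in each alternative run. In TPM it was 1.07 with a pseudocount of 0.1, 0.41 with one of 5, 0.61 with no filter, 1.01 at a mean of at least 5 TPM, 0.56 after centring on all measured genes, 0.24 after centring on the GC class, 0.56 after trimmed mean scaling, 0.63 in FPKM and 0.77 in the assembled loci, both of best reciprocal overlap and of highest TPM. In coverage it was 0.81, 0.40, 0.67, 0.66, 0.56, 0.28 and 0.53 under the first 7 of these, and 0.50 when it was scaled by each library's coverage per FPKM. The count of members 2-fold higher in TPM was 20 with a pseudocount of 0.1 (23.0% of all measured genes), 10 with a pseudocount of 5 (5.32%), 8 after centring on the GC class, where 2 were lower, and 9 under a trimmed mean scaling (8.75%), a shift of 0.35 in TPM and 0.22 in coverage. In coverage it was 16 with a pseudocount of 0.1 (15.2%), 1 with a pseudocount of 5 (2.38%), 6 at a mean of at least 5 TPM, where 23 members remained (7.52%), 7 after centring on all measured genes (5.50%), 2 after centring on the GC class, 5 after trimmed mean scaling (5.06%) and 2 when scaled by coverage per FPKM (3.94%). The scaling by coverage per FPKM divided coverage by 3.54 in AS and 3.62 in SC before 1 was added. These divisors are close, so the lower count comes mainly with the greater weight of the added 1. In the loci of best reciprocal overlap 13 members were 2-fold higher (16.1% of genes) and 1 lower (3%), USP20 at -2.60. In those of highest TPM, an alternative chosen after seeing the data, 12 were higher (13.5%) and 0 lower (2.13%), with USP20 at -0.46. No member past 2-fold in the main setting of a column changed its sign in that column under these alternatives. USP54, within 2-fold in the main setting, was at 1.18 in the loci of highest TPM and -0.48 in those of best reciprocal overlap. Reads per gene are not given, so precision at low coverage, as for USP15, is unknown.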
